A study of Homo sapiens with 2 samples.

Results

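The NRF2 and glutathione genes are a set of 10 genes of oxidative stress defence, taken by gene name from the 50868 genes of the deposited expression table. They are NFE2L2, KEAP1, GCLC, GCLM, GSR, GPX4, HMOX1, NQO1, TXNRD1 and SRXN1. All 10 were found, and all 10 had at least 10 reads over both libraries, the minimum for a gene to be compared. The RNA came from MOLM-13, a human acute myeloid leukemia (AML) cell line with the KMT2A::MLLT3 fusion, grown in RPMI medium with fetal bovine serum. There was 1 library from cells given the empty control (Vector) and 1 library from cells given an UNC5B construct (OE-UNC5B). According to the methods, UNC5B was delivered by a lentivirus packaged in HEK-293T cells, with a CMV promoter and an mCherry and a puromycin resistance marker, and cells were selected with puromycin. Whether the cells were a pool or a clone is not given in the sources used here.

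NRF2, the protein of NFE2L2, is a transcription factor that the adaptor KEAP1 holds for degradation in unstressed cells. When oxidants or electrophiles modify KEAP1, NRF2 accumulates, pairs with small MAF proteins and binds antioxidant response elements near its target genes. The targets make glutathione, the main small thiol of the cell, and also supply thioredoxin reductase, quinone reductase and heme oxygenase. Glutathione supports leukemia cells against oxidants and against several drugs.

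The antioxidant response element has the core TGACNNNGC, in which N is any base. It was searched on both strands of the RefSeq promoter windows (GRCh38.p14), which run from 250 bases before to 50 bases after a start site. Of the members, 8 had an entry, with 13 windows in all, and GSR and HMOX1 had none. KEAP1, GCLM and TXNRD1 held the core, in 4 windows with 6 matches. Of all 35116 windows in the table, 13.3% held it. The letters are shown because NRF2 is known to act on its targets through this element. Each line reads 5′ to 3′ on the strand that carries the core, which is in capitals.
KEAP1: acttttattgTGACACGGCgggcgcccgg
KEAP1: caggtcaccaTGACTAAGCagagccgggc
GCLM: tggaagacaaTGACTAAGCagaaatcgta
TXNRD1: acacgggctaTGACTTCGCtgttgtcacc
TXNRD1: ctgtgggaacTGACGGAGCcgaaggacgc
TXNRD1: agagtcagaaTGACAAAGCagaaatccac
The KEAP1 stretches lie at chr19:10502807-10502835 on the minus strand and chr19:10502784-10502812 on the plus strand, and their cores begin 54 and 31 bases before the downstream of its start sites. The GCLM stretch lies at chr1:93909446-93909474 on the plus strand, with its core 34 bases before the start. The TXNRD1 stretches lie at chr12:104215670-104215698 (plus), chr12:104215761-104215789 (minus) and chr12:104286920-104286948 (minus), with cores 99 and 8 bases before the upstream start and 102 bases before a downstream start. The same 9 letters, TGACTAAGC, stood in GCLM and in KEAP1. With A or G required before the core, the same 3 genes held a match, 5 of the 6 matches remained, and 6.88% of all windows held it. A match describes the letters only, and elements farther from the start were not searched.

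The libraries held 13715566 counted reads in Vector and 15637137 in OE-UNC5B, and compared genes had a median of 269.5 and 316 reads. UNC5B itself had 0 reads in both libraries. The floor of 3 reads is 0.222 CPM (TMM-scaled counts relative to library size) in Vector and 0.189 in the other library, so its expression was not detectable at this depth and no fold can be given. The label OE-UNC5B has no support from its target gene, so that library is named only by its label from here on. Directions below rest on the labels. Myeloid markers were present, with 12 of 14 compared and CD34 at 0 in both. Their median log2 fold change was 0.07, with 7 values above and 5 below 0. At 2-fold 0 were higher and 3 were lower, against 5.15% and 4.79% of all compared genes, namely LYZ (51742 reads against 23700), MPO (3363 against 1553) and CD38 (162 against 77). At 1.5-fold 2 were higher, MEIS1 (247 against 542) and PTPRC (1592 against 3102), and the same 3 were lower, against 12.9% and 12.5%. The erythroid, fibroblast and HEK293 lists held at most 35 reads in a library, and KRT8 and CDH5 were at 0. The endothelial list held 1636 and 1478 reads, of which PECAM1, also a leukocyte gene, held 1626 and 1471, and the lymphocyte list held 453 and 513, mostly of TRAC. The part of these differences in the values below was not tested. In bulk RNA, fewer cells of a type and less RNA per cell cannot be told apart.

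Differences are log2 fold changes of the library labelled OE-UNC5B over Vector, after TMM scaling of library size and with 0.5 reads added. Since each group is a single library, none of the differences has a replicate check, and the conditions cannot be tested. The 95% Clopper-Pearson intervals come from the reads and cover counting error only. Genes past 2-fold are taken as called, and a looser threshold of 1.5-fold was counted beside it.

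Of the 10 members, 0 were higher and 0 were lower by at least 2-fold. Over all 15384 genes compared, 5.15% were higher and 4.79% were lower by this rule. At 1.5-fold, 0 members were higher, against 12.9% of all genes, and 2 were lower, NQO1 and HMOX1, against 12.5% of all genes. On the FPKM scale with 1 added, where HMOX1 was too low to be compared, 0 members were lower by 1.5-fold. The median log2 fold change of the members was -0.30, against -0.01 over all genes, with 3 members above and 7 below the median of all genes. The middle range of all genes, from the 25th to the 75th percentile, ran from -0.33 to 0.32, and 5 members lay in it. The interval excluded 0 above for 2 members (NFE2L2 and GCLC) and below for 5 (KEAP1, GCLM, GPX4, NQO1 and SRXN1), and it held 0 for GSR, TXNRD1 and HMOX1. Over all genes it excluded 0 for 51.4%, so an interval away from 0 was common between these libraries.

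**Figure D1:**
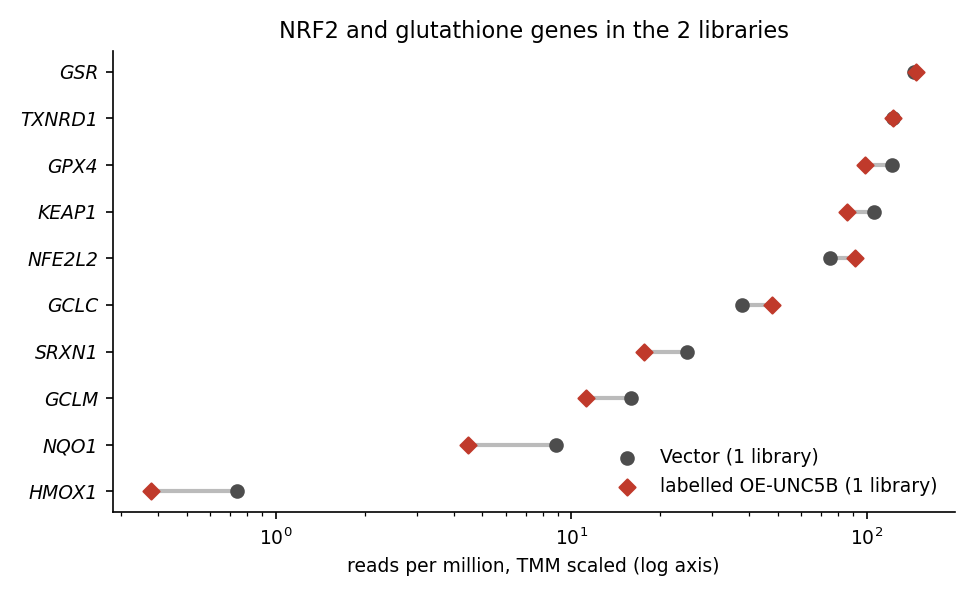
TMM-scaled CPM of each member in the Vector library (circles) and the library labelled OE-UNC5B (diamonds), on a log axis, with 1 library per group and no error bars. The members span from 0.377 (HMOX1) to 147 (GSR) CPM, and each pair lies close together except at NQO1 and HMOX1.

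**Figure D2:**
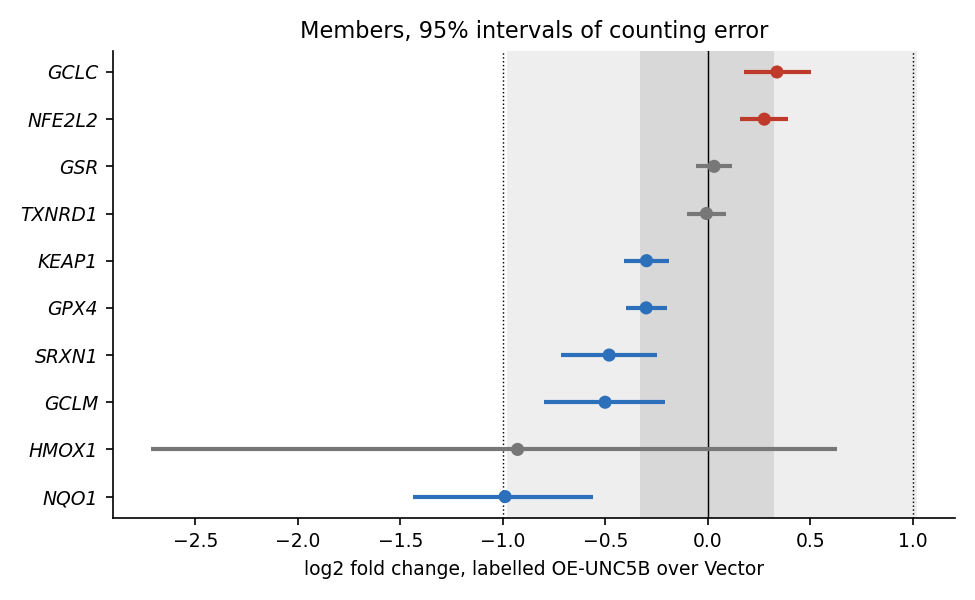
Log2 fold change of each member (points) with the 95% interval of counting error (bars), with the 5th to 95th percentile (light) and 25th to 75th percentile (dark) of all genes shaded and dotted lines at 2-fold. GCLC (0.34) and NFE2L2 (0.27) lie to the right of 0, and NQO1 (-0.99) lies just inside the 2-fold line.

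The regulator pair came first in the pathway. NFE2L2, which encodes NRF2, had 1015 reads in Vector and 1447 reads with the OE-UNC5B label (75.2 and 91.0 CPM). This gave a log2 fold change of 0.27 (interval 0.16 to 0.39), or 1.21 times the Vector level. KEAP1, the adaptor that presents NRF2 for ubiquitination, had 1427 and 1366 reads (106 and 85.9 CPM), for a log2 fold change of -0.30 (-0.41 to -0.19). The transcription factor was thus slightly higher and its inhibitor slightly lower, both under 1.5-fold. The ratio of NFE2L2 to KEAP1 reads, which does not depend on library scaling, was 0.711 in Vector against 1.06 in the labelled library, a 1.49-fold difference (interval 1.33 to 1.66, conditional exact, counting error only). NFE2L2 lies at chr2:177227595-177392697 on the minus strand, and 38.4% of its exonic bases also lie in exons of other genes, among them HNRNPA3 on the opposite strand with 5413 and 5594 reads. Use of strand in the counting is not given in the sources used here, so its value is uncertain. KEAP1 lies at chr19:10486120-10503741 on the minus strand and shares no exonic base with another gene of GENCODE 44.

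Glutamate-cysteine ligase joins glutamate and cysteine in the limiting step of glutathione synthesis, and its 2 subunits differed in opposite directions. GCLC, the catalytic subunit, had 512 reads in Vector and 762 reads with the OE-UNC5B label. At 0.34 (0.17 to 0.50) it had the highest log2 fold change of the 10 members. GCLM, the modifier subunit that raises the affinity of the enzyme for its substrates, had 214 and 178 reads, and its log2 fold change was -0.50 (-0.80 to -0.21), or -0.28 on the FPKM scale with 1 added. The intervals of the subunits do not overlap, although neither passed 1.5-fold. GCLC reads were 2.39 times GCLM reads in Vector and 4.28 times under the OE-UNC5B label, a 1.79-fold difference in the ratio (interval 1.41 to 2.26). GCLC lies at chr6:53497341-53616970 on the minus strand and has 16 exons in its main transcript. It shares 9.68% of its exonic bases with noncoding genes that had 0 reads. GCLM lies at chr1:93885205-93909456 on the minus strand, with 7 exons, and shares none. GCLM carries the core shown above within its window and GCLC does not.

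Of the enzymes that use and recycle glutathione, GSR differed little and GPX4 was slightly lower. GSR, glutathione reductase, regenerates glutathione from its oxidized form with NADPH, and had 1946 and 2341 reads (144 and 147 CPM). The log2 fold change of GSR was 0.03 (-0.06 to 0.12), so a change of more than 1.5-fold lies outside its counting interval. GPX4, the selenoenzyme that reduces lipid hydroperoxides and guards against ferroptosis, had 1641 and 1569 reads, and a log2 fold change of -0.30 (-0.40 to -0.20), a value 1.23 times lower. The GSR to GPX4 read ratio was 1.19 in Vector and 1.49 with the OE-UNC5B label, a 1.26-fold difference (interval 1.15 to 1.38). GSR lies at chr8:30678061-30727926 on the minus strand and GPX4 at chr19:1103926-1106791 on the plus strand, and neither shares an exonic base with another gene.

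The thioredoxin arm gave the smallest difference. TXNRD1, cytosolic thioredoxin reductase and a selenoprotein, had 1660 reads in Vector and 1946 with the OE-UNC5B label, which is 123 and 122 CPM. On the log2 scale the difference was -0.01 (-0.10 to 0.09), and 0.04 when scaled to library totals. SRXN1, sulfiredoxin, restores overoxidized peroxiredoxins, and had 332 and 280 reads with a log2 fold change of -0.48 (-0.72 to -0.25). These NRF2 targets therefore had intervals that do not overlap. The TXNRD1 to SRXN1 read ratio was 5.0 and 6.95, a 1.39-fold difference (interval 1.17 to 1.66). TXNRD1 lies at chr12:104215779-104350305 on the plus strand. SRXN1 lies at chr20:646615-653370 on the minus strand, where 90.7% of its exonic bases also belong to a same-strand protein-coding gene of GENCODE 44 that was listed with 0 reads in both libraries.

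NQO1 and HMOX1, which are often read as markers of NRF2 activity, had the fewest reads of the members and the lowest log2 fold changes. NQO1, a quinone reductase, had 120 reads in Vector and 71 with the OE-UNC5B label (8.89 and 4.47 CPM). The NQO1 log2 fold change was -0.99 (-1.44 to -0.56), a value 1.99 times lower and just short of the threshold for a call, but it was -0.50 on the FPKM scale with 1 added, short of 1.5-fold. Among all genes, 4.88% had a lower log2 fold change. NQO1 lies at chr16:69706996-69726951 on the minus strand and shares 19.4% of its exonic bases with an antisense noncoding gene that had 0 reads. HMOX1, heme oxygenase 1, which opens the heme ring and is also repressed by BACH1, had 10 and 6 reads (0.741 and 0.377 CPM). Its log2 fold change was -0.93, but the interval ran from -2.72 to 0.63, so a difference was not detectable at this depth. HMOX1 lies at chr22:35380361-35394214 on the plus strand and shares no exonic base.

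Levels between genes were compared as CPM per kilobase of the main GENCODE 44 transcript. GPX4 was the highest member, at 143 in Vector and 116 under the OE-UNC5B label, above 96.8% and 96.5% of the compared genes. GSR came next at 47.5 and 48.5. KEAP1 (41.2 and 33.5), TXNRD1 (31.9 and 31.7) and NFE2L2 (30.8 and 37.2) formed a middle group whose order differed between the libraries. GCLC (10.0 and 12.7) and SRXN1 (9.73 and 6.97) followed. NQO1 (3.53 and 1.77) and GCLM (3.25 and 2.29) exchanged places between the libraries, and HMOX1 was last at 0.477 and 0.243. With 1 library per group, neighbours within these groups cannot be separated by a spread. In the deposited FPKM the order began with GSR, at 35.1 and 37.1, and GPX4 stood second at 21.7 and 18.2. The length behind the FPKM of GPX4, 5525 bases, is longer than its main transcript of 851 bases and was the only member length to exceed the whole span of its gene. For the 10 members this length was 0.793 to 3.00 times the union of exons in GENCODE 44, so the order of levels depends on the length used, while differences between the libraries do not.

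Of 17 compared genes of glutathione synthesis and turnover, 4 rose and 0 fell by at least 2-fold, where 5.15% and 4.79% of all genes did, and the median was 0.34. SLC7A11, the cystine importer and an NRF2 target, rose from 249 to 1324 reads, a log2 fold change of 2.17 (1.98 to 2.38). CTH and CBS, the transsulfuration enzymes that make cysteine from homocysteine, rose from 148 to 1005 reads and from 43 to 189 reads. Their log2 fold changes were 2.52 (2.28 to 2.79) and 1.89 (1.42 to 2.41). CHAC1, which degrades glutathione, rose from 36 to 139 reads, a log2 fold change of 1.70 (1.17 to 2.28). On the FPKM scale with 1 added, CBS (0.74) and CHAC1 (0.81) did not reach 2-fold. SLC3A2, the partner chain of SLC7A11, had 1583 and 3342 reads and a log2 fold change of 0.84. At 1.5-fold, 6 genes of this list were higher and 0 lower, against 12.9% and 12.5% of all genes. GSS, glutathione synthetase and the gene of this list with the highest deposited FPKM, had 850 and 996 reads and a log2 fold change of -0.01 (-0.14 to 0.13). Of the genes that passed 2-fold, SLC7A11, CTH and CHAC1 are also known as targets of the amino acid stress factor ATF4. Any part of ATF4 in these differences was not tested.

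**Figure D3:**
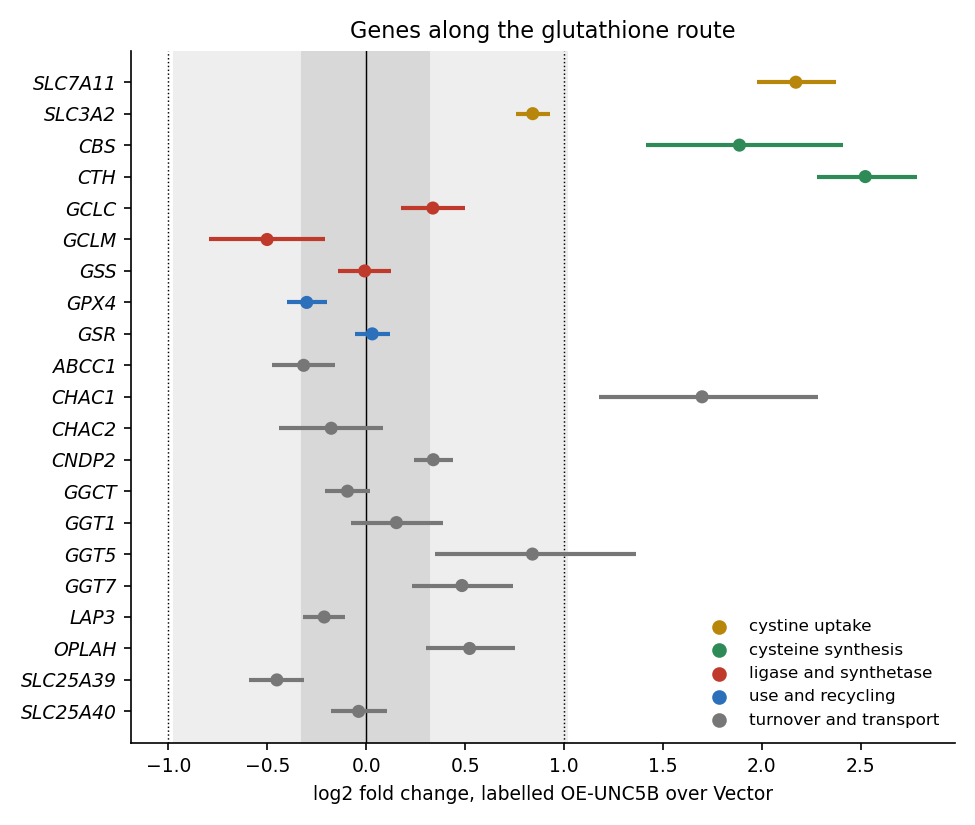
Log2 fold change (points) and 95% interval of counting error (bars) of genes from cystine uptake to glutathione turnover, with the 5th to 95th and 25th to 75th percentile ranges of all genes shaded and dotted lines at 2-fold. SLC7A11, CTH, CBS and CHAC1 lie beyond the 2-fold line to the right, whereas the ligase subunits GCLC (0.34) and GCLM (-0.50), GSS (-0.01), GPX4 (-0.30) and GSR (0.03) lie between the lines.

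Of 27 compared NRF2 targets outside the 10 members, 2 rose and 3 fell by at least 2-fold, where 5.15% and 4.79% of all genes did, and the median was -0.30, with 6 values above and 21 below 0. SLC7A11 and TRIM16 rose, TRIM16 from 646 to 1524 reads just past 2-fold (interval 0.87 to 1.14 on the log2 scale), but TRIM16 has a close copy in TRIM16L and its count is uncertain. MGST1, a microsomal glutathione transferase, fell from 905 to 488 reads, a log2 fold change of -1.13 (-1.29 to -0.97). BLVRA, biliverdin reductase, which follows heme oxygenase, fell from 76 to 31 reads, a log2 fold change of -1.52 (-2.18 to -0.91). PIR also fell, from 42 to 3 reads, with a log2 fold change of -3.84 (-6.38 to -2.40), and is named because it completes the count. FTL, the ferritin light chain and the highest of this list, had 31796 and 24352 reads and a log2 fold change of -0.62 (-0.65 to -0.60), and it has pseudogenes that could share its reads. On the FPKM scale with 1 added, TRIM16 (0.88), MGST1 (-0.87), BLVRA (-0.81) and PIR (-0.94) did not reach 2-fold. At 1.5-fold, 3 targets were higher and 7 lower, where 12.9% and 12.5% of all genes were.

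Among 19 compared regulators of NRF2, 1 rose and 0 fell by at least 2-fold, where 5.15% and 4.79% of all genes did. Their median log2 fold change was -0.08, with 7 values above and 12 below 0. At 1.5-fold, 1 was higher, MAFK, and 1 was lower, PGAM5, where 12.9% and 12.5% of all genes were. PGAM5, a mitochondrial phosphatase that binds KEAP1, had 1419 and 1105 reads and a log2 fold change of -0.60. MAFK, a small MAF partner, rose from 271 to 705 reads, a log2 fold change of 1.14 (0.94 to 1.35), but 0.97 on the FPKM scale with 1 added. MAFG, another partner and the highest of this list in FPKM, had 2929 and 4653 reads and a log2 fold change of 0.43. BACH1, which competes with NRF2 for its elements, had 591 and 934 reads and a log2 fold change of 0.42. CUL3, the ubiquitin ligase scaffold that works with KEAP1, had 1130 and 1283 reads and a log2 fold change of -0.05.

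In the thioredoxin and peroxiredoxin list, 2 of 20 compared genes rose and 1 fell by at least 2-fold, against 5.15% and 4.79% of all genes, with a median of -0.26. TXNIP, which binds and inhibits thioredoxin, rose from 1345 to 5255 reads, a log2 fold change of 1.73 (1.64 to 1.82). SESN2, a stress-inducible sestrin, rose from 404 to 1451 reads, a log2 fold change of 1.61 (1.45 to 1.77). PRDX4, the peroxiredoxin of the endoplasmic reticulum, fell from 1141 to 589 reads, a log2 fold change of -1.19 (-1.34 to -1.05). TXN, thioredoxin itself, had 3190 and 2664 reads and a log2 fold change of -0.50. At 1.5-fold, 2 genes of this list were higher and 3 lower, against 12.9% and 12.5% of all genes.

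In the remaining lists, numbers past 2-fold stand against the same 5.15% higher and 4.79% lower over all genes. Of 19 compared glutathione peroxidases and transferases, 0 rose and 1 fell, which was MGST1, and GLO1, the glyoxalase that uses glutathione, had 2689 and 1867 reads and a log2 fold change of -0.76. Of 10 genes of heme breakdown and ferritin, 0 rose and 1 fell, BLVRA. None of 12 genes of NADPH supply passed 2-fold, and PGD, of the pentose phosphate route, had 4797 and 4830 reads and a log2 fold change of -0.23. None of 10 superoxide and peroxide enzymes did, and CAT, catalase, had 5462 and 4065 reads and a log2 fold change of -0.66. Of 19 genes of selenoproteins and their synthesis, 1 rose, SARS1, the seryl-tRNA synthetase, from 1499 to 3732 reads. SEPHS2, which makes the selenium donor, had 1349 and 1733 reads and a log2 fold change of 0.12. Of 14 ferroptosis genes, 1 rose, SLC7A11, and 2 fell, AIFM2 from 73 to 40 reads and PTGS2 from 26 to 8 reads. AIFM2 and PTGS2 were under 1 FPKM in both libraries and were not compared on the FPKM scale. NCOA4, the ferritin autophagy receptor, had a log2 fold change of -0.40. At 1.5-fold, 12.9% of all genes were higher and 12.5% lower. The numbers higher and lower were 0 and 2 for glutathione peroxidases and transferases and 0 and 3 for heme breakdown and ferritin. They were 0 and 1 for NADPH supply and 0 and 3 for superoxide and peroxide enzymes. For the selenoprotein list they were 4 and 1, and for ferroptosis 2 and 3.

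**Figure D4:**
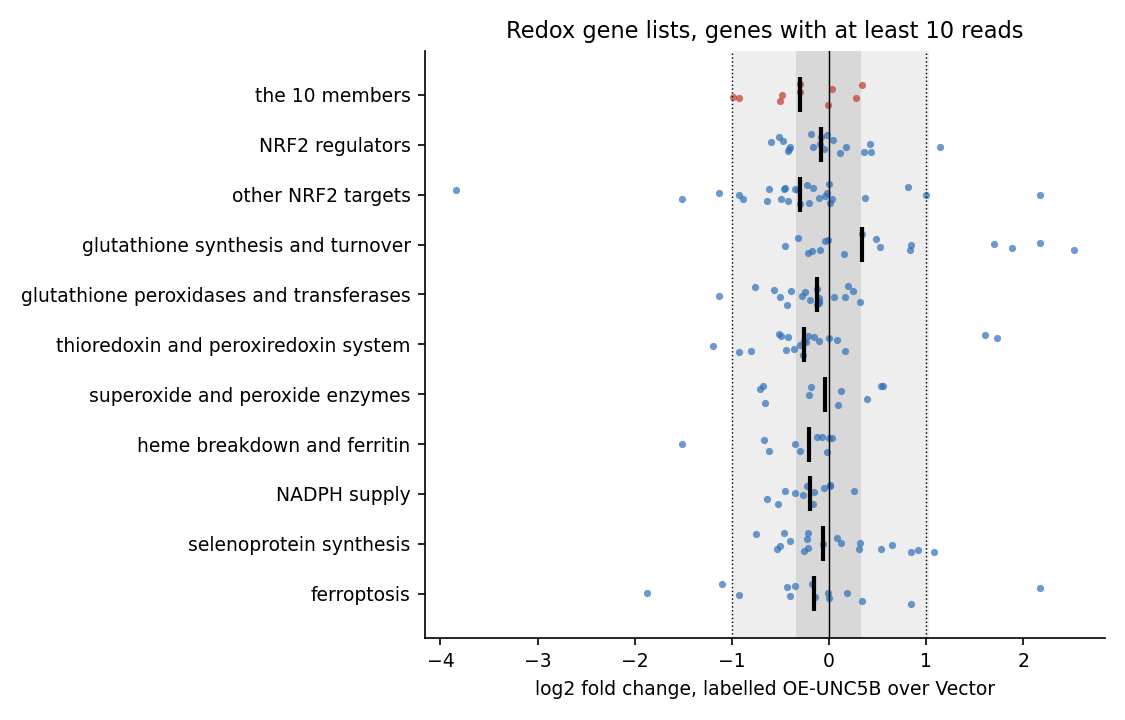
Log2 fold change of each compared gene (points) in the 10 members and 10 redox lists, with list medians as black bars, the 5th to 95th and 25th to 75th percentile ranges of all genes shaded and dotted lines at 2-fold. Some genes stand in more than 1 list, and the list of glutathione synthesis and turnover has the highest median (0.34) while the members and the other NRF2 targets have the lowest (-0.30). The place of the other NRF2 targets depends on the filter. With at least 50 reads their median was -0.23, above the thioredoxin and peroxiredoxin list at -0.26.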

How the data were processed

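The authors deposited unscaled gene-level read counts and FPKM values for 1 Vector and 1 OE-UNC5B library of MOLM-13 cells. The submitters' processing notes name bcl2fastq 2.19, HISAT2 2.0.4, StringTie 1.3.0 and GRCh38. The deposited FPKM are scaled to reads counted on genes, because dividing counts by FPKM gave library ratios of 1.14, as did the totals. Neither annotation release nor strand setting is given in the sources used here.

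TMM scaling (factors 0.984 and 1.02) was done in edgeR 4.0.16 under R 4.3.3. Genes whose reads summed to 10 or more were compared, with 0.5 reads added. Exact intervals (95%) used scipy 1.17.1 and cover counting error only. With 1 library per group, edgeR's quasi-likelihood test could not be fitted. The procedure was tested on simulated counts that held counting error only. That test cannot show how the procedure does with variation between replicate libraries. Locations, lengths and overlaps came from GENCODE 44, in which 49659 identifiers were found. Promoter windows came from RefSeq and were the same letters as in hg38.

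The members and lists were chosen with earlier results of these data known. The text names all members, UNC5B, pathway-list genes past 2-fold with at least 50 reads and the gene of highest FPKM in each pathway list. Other genes (SLC3A2, BACH1, CUL3, PGAM5, PIR, PTGS2, LYZ, MPO, CD38, MEIS1, PTPRC, CD34, KRT8, CDH5, PECAM1, TRAC and HNRNPA3) and the ratios of 2 members were chosen after values were seen. With 2 libraries no gene of like pattern can be named. Alternatives were size factors of DESeq2 1.42.0, library totals, no filter, a minimum of 50 reads, 2 reads added, FPKM with 0.1 or 1 added, and an assumed biological variation in edgeR's exact test.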

Additional observations from a re-analysis of the deposited data

How the results depend on the processing

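No paired analysis was possible because each group had a single library, and no replicate could be left out. The number of members past 2-fold stayed at 0 in either direction with FPKM values, DESeq2 size factors, library totals and 2 reads added. With no filter or at least 50 reads it could not differ from 0, because these change only which genes are compared. The number lower by 1.5-fold was 2, but 1 with FPKM and 0.1 added and 1 with at least 50 reads, since HMOX1 is left out there, and 0 with FPKM and 1 added, where the log2 fold change of NQO1 was -0.50. In edgeR's exact test with an assumed coefficient of variation of 0.1, 1 member was lower, and with 0.2 or 0.4, 0 were. Of 67 member values under the alternatives, 66 stayed within their counting interval. With no filter or at least 50 reads a gene's value cannot move. Part of this count, and of the count for list genes below, was therefore fixed in advance. TXNRD1 changed sign with library totals (0.04) and with FPKM (0.04 with 0.1 added and 0.03 with 1 added). Of 162 values of list genes past 2-fold or of highest FPKM, 151 stayed within their counting interval. Of 70 list medians, 67 moved by no more than the median half-width of the intervals of their list's genes. The sign changed in 4 of these values, namely GSS with library totals (0.04) and with FPKM (0.04 with either amount added) and the median of superoxide and peroxide enzymes with library totals (0.0036). With FPKM and 1 added, BLVRA (-0.81), CBS (0.74), CHAC1 (0.81), MAFK (0.97), MGST1 (-0.87), PIR (-0.94) and TRIM16 (0.88) no longer passed 2-fold, and TRIM16 also missed it with 2 reads added. AIFM2 and PTGS2 were not compared with FPKM, and PIR and PTGS2 not with at least 50 reads. Over all genes, 792 were higher and 737 lower by 2-fold. These numbers were 2886 and 3079 without a filter, where the median of all genes was -0.24, 359 and 297 with at least 50 reads, 392 and 281 with FPKM and 0.1 added, and 165 and 130 with 1 added. The exact test called 909 higher and 888 lower with an assumed variation of 0.1, 131 and 121 with 0.2, and 7 and 8 with 0.4. For members and for all genes, the exact test counted by adjusted p-value and direction with no fold limit. Its numbers are therefore another measure than the numbers past 2-fold. Depth limits HMOX1, which had 10 and 6 reads.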
